A study of Mus musculus with 20 samples.

Results

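An intron can end at more than one 3′ splice site, and the choice between neighbouring sites can lengthen or shorten the next exon. Here, 2663 pairs of such sites were analysed in mouse bone marrow. A pair was made of 2 annotated junctions with the same chromosome, strand and 5′ splice site whose 3′ sites lie 4 to 200 bp apart, with no annotated junction wholly between them. Where a 5′ site had several 3′ sites, only neighbours were paired. The pairs were 2663 of 30226 neighbouring pairs of annotated junctions that shared one end at any distance, and they carried 2022 gene labels. The site nearer to the 5′ splice site is called the proximal site, and the other the distal site. The proximal site gives the longer exon where both sites begin the same exon. That was not checked for each pair, and statements on frame and codons below assume it. The proximal share is the percentage of the reads of both junctions that used the proximal site.

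The 20 mice were lethally irradiated congenic recipients of donor marrow carrying rtTA and a doxycycline-inducible transgene, either U2AF1(S34F) or U2AF1(WT), so that the controls also carried an induced *U2AF1* transgene. All received doxycycline chow (625 ppm) for 7 days, and sudemycin D6 or vehicle was infused through a jugular catheter on the last 5 of these days. Each genotype had 5 mice on vehicle and 5 on sudemycin. Marrow of several donors was pooled for transplantation, and recipients of one genotype may share donors, so p-values measure the spread between recipients. RNA was from unsorted marrow, in which fewer cells of a type and less RNA per cell cannot be told apart.

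In the background biology, the small subunit of U2AF, U2AF1, contacts the AG dinucleotide at the end of the intron and the bases beside it, while the large subunit binds the polypyrimidine tract before it. S34F lies in a zinc finger of U2AF1 and recurs in myelodysplastic syndromes, and it is known to change the preference for the base just before the AG. SF3B1, the protein that sudemycins bind, belongs to the U2 snRNP, which recognises the branch point further upstream.

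The reads on annotated junctions summed to between 33486528 and 63130342 per mouse, and those on the pairs' proximal junctions to between 294627 and 516944. *U2af1* gene counts averaged 36.1 ± 1.38 CPM, counts per 1e6 gene reads (SD, 5 mice), with vehicle and 42.7 ± 3.88 CPM with sudemycin in U2AF1(WT) marrow, and 51.0 ± 3.32 CPM and 54.6 ± 2.79 CPM in U2AF1(S34F) marrow. All 10 U2AF1(WT) mice had *Xist* at 879 CPM or more and all 10 U2AF1(S34F) mice at 0.145 CPM or less, and *Eif2s3y*, *Ddx3y* and *Kdm5d* were at 0 counts in every U2AF1(WT) mouse. Genotype and donor sex therefore cannot be told apart in any genotype comparison. Summed neutrophil markers, all 11 of 11 measured, spanned 64025 to 72819 CPM in vehicle-treated U2AF1(WT) and 86592 to 141126 CPM in vehicle-treated U2AF1(S34F) mice. Between the sudemycin-treated groups they spanned 59758 to 104315 CPM and 74037 to 122238 CPM. Of these 11 genes 5 were higher in U2AF1(S34F) mice under vehicle and 3 under sudemycin, and 0 were lower (edgeR, FDR<10%). Their part in the splicing differences was not tested. Of the other marker lists, 1 of 7 B cell genes was higher in U2AF1(S34F) than in U2AF1(WT) mice under vehicle, where the list's median log2 fold change was -0.97, and 4 were lower under sudemycin (edgeR, FDR<10%, median -0.99). Of 6 T and NK cell genes 2 were higher and 1 lower under vehicle, and 3 were lower under sudemycin. Of 8 erythroid genes 0 passed under vehicle in edgeR and 3 were lower under sudemycin, and 2 of 6 megakaryocyte genes were lower under either treatment. Of 6 monocyte and macrophage genes 1 was higher and 2 lower under vehicle, and 2 were higher and 1 lower under sudemycin. The part of these lists in the splicing differences was not tested either.

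Most pairs lay within coding sequence (1811, 68%). Another 330 were in 5′ UTRs, 44 in 3′ UTRs and 453 in noncoding transcripts. For 25, no transcript of the annotation used here had the proximal junction. The median distance between the sites was 39 bp. Of the coding pairs, 801 of 1811 (44.2%) had a distance that is a multiple of 3, and of the other pairs 232 of 852 (27.2%). Such a distance keeps the reading frame where both sites begin the same exon. Of the proximal sites 2622 and of the distal sites 2646 followed an AG. At base -3, the base just before this AG, C was the commonest at both sites (59.1% of proximal and 70.3% of distal sites), followed by T (27.8% and 17.6%) and A (10.6% and 10.5%), and G was rarest (2.44% and 1.65%).

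The sites of 10 pairs are printed because the comparisons below turn on them. Each line holds the last 20 bases of the intron and the first 3 of the exon, 5′ to 3′ on the strand of the gene, from the mm9 (NCBI build 37) reference. The capitals mark base -3 and the 2 bases after it, which are AG at every site shown but one. Coordinates span the bases between both sites.

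In *Itgb2l* (chr16:96647833-96647875, minus strand, coding), named for its likeness to a leukocyte integrin chain, the 43 bp between the sites do not keep the frame. Its distal site is annotated but follows CGG.
Itgb2l proximal: caaccccggttgttttcCAGaaa
Itgb2l distal: cgatgcttttgtcgttaCGGctt
In *Atp2c1* (chr9:105396813-105396927, minus strand, 5′ UTR), a Golgi calcium and manganese pump, and *Arfgap1* (chr2:180702239-180702306, plus strand, 5′ UTR), which stimulates GTP hydrolysis by ARF1, all sites have C at base -3.
Atp2c1 proximal: tctcctggtttctcttgCAGatg
Atp2c1 distal: cctctcctctctattccCAGtgt
Arfgap1 proximal: gcgtacctcccatttccCAGctt
Arfgap1 distal: cctcggaccccaaactcCAGgat
In *Jmjd1c* (chr10:66680786-66680864, plus strand, coding), of a family of histone demethylases, and *AF251705* (chr11:114862300-114862387, minus strand, coding), a receptor of myeloid cells, the proximal site has T at base -3 and the distal site A or C.
Jmjd1c proximal: tgttttatgtcatggatTAGgta
Jmjd1c distal: cgttcactctttgttaaAAGgtg
AF251705 proximal: cctttctcactctttccTAGaga
AF251705 distal: ttgaagttactcttttcCAGgct
In *Picalm* (chr7:97339651-97339665, plus strand, coding), a clathrin assembly protein, and *Usp33* (chr3:152037855-152037878, plus strand, coding), a deubiquitinase, T is at the distal site instead.
Picalm proximal: catctgtttgtaactttAAGgct
Picalm distal: ttaaggctttgatgaacTAGgtg
Usp33 proximal: ttctgtcaatgatgtttCAGgtt
Usp33 distal: gttgtctcatgtgtcccTAGctg
The last 3 pairs carry drug differences: *Ino80d* (chr1:63140015-63140105, minus strand, coding), a subunit of the INO80 chromatin remodelling complex, *Rab6a* (chr7:107778180-107778351, plus strand, coding), a Golgi GTPase, and *Chd4* (chr6:125050796-125050816, plus strand, coding), the ATPase of the NuRD complex.
Ino80d proximal: tttttgtggtggcctttTAGctg
Ino80d distal: aagcccttgtgctcataTAGccc
Rab6a proximal: tactttttcccgtcccaCAGatc
Rab6a distal: ttgactgattttgttgtTAGgtg
Chd4 proximal: tccctccccccctgctcCAGcgt
Chd4 distal: gtttactcttatgccggCAGctg

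Over the 2279 pairs that averaged 10 or more reads a mouse, with reads on both junctions, the mean proximal share had a median of 74%. One site took over 90% of the reads in most of them: the proximal site in 879 pairs and the distal site in 676 pairs, with 724 pairs between 10% and 90%. The median was 86.6% for sites 4 to 20 bp apart, 61.7% for 21 to 60 bp and 61% for 61 to 200 bp. It was 89.8% in coding pairs and 50.1% in 5′ UTR pairs.

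The first question was which site choices differ between U2AF1(S34F) and U2AF1(WT) marrow without drug. Of 2138 pairs tested, 45 were called in edgeR's quasi-likelihood test (FDR<10%, difference over 1 percentage point), and the proximal share was lower in U2AF1(S34F) mice in 35 and higher in 10. This is 2.10% of the tested pairs, against 2.63% of all neighbouring pairs of 3′ or 5′ sites tested in the same fit, of which the nearer site was lower in 1.48% and higher in 1.15%. The median size of the called differences was 15.5 points. Of sites 3 bp apart 1 of 527 was called, and of 3′ sites over 200 bp apart 270 of 8263 (3.27%).

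*Itgb2l* had the largest difference. The pairs named for their size, here and below, were chosen among called pairs whose groups did not overlap. Absence of overlap in them is therefore no further evidence. On vehicle, the proximal share was 87.2, 82.6, 71.1, 76.3 and 67.0% among the 5 U2AF1(WT) mice, against 31.5, 24.9, 19.3, 32.6 and 19.2% among the 5 U2AF1(S34F) mice, from 431 to 1639 reads a mouse. Every mutant mouse lay below every control. The mean fell by 51.4 points (FDR 0.00249, edgeR), and the call held in 11 of 11 other settings and without each of the 10 mice. Proximal reads went from a mean of 22.2 to 2.75 per 1e6 junction reads, while distal reads were at 6.69 and 7.70 per 1e6. The gene itself was lower in U2AF1(S34F) mice, by a log2 fold change of -0.59 (FDR 0.00412).

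In *Atp2c1*, the share was 66.5, 58.7, 65.5, 69.9 and 72.4% among U2AF1(WT) mice, against 35.5, 33.3, 23.9, 18.7 and 35.5% in U2AF1(S34F) mice. The groups did not overlap, the mean fell by 37.2 points (FDR 8.52e-10), and the gene's level did not pass the test (log2 fold change 0.07, FDR 0.586). The *Atp2c1* call held in 10 of 11 other settings. *Arfgap1* went the other way, and its call held in 9 of 11. Its proximal share was 14.2, 12.5, 20.7, 15.4 and 15.2% among U2AF1(WT) mice, against 47.7, 42.0, 40, 53.2 and 32.0% in U2AF1(S34F) mice, a rise of 27.4 points (FDR 0.00455) with no overlap, while the gene was lower (log2 fold change -0.19, FDR 0.0887).

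In *Jmjd1c*, the U2AF1(WT) mice had shares of 84.6, 83.8, 71.0, 89.3 and 75% and the U2AF1(S34F) mice 43.6, 62.5, 58.0, 51.3 and 53.1%. This fall by 27.1 points (FDR 0.000830) moved reads to a site 79 bp downstream, which changes the frame. The call held in 8 of 11 other settings. *Vps8*, a subunit of the endosomal CORVET tethering complex, fell by 24.6 points at sites 53 bp apart in the 5′ UTR (FDR 0.0444). Its call was lost without U2AF1(WT) mouse 1 or 3, in which the distal junction had 0 reads, and without either the highest FDR was 0.118. *Zfp280c*, a zinc finger gene on chromosome X, rose by 32.1 points (FDR 0.0551), and its call held without 4 of the 10 mice only, with 31 to 92 reads a mouse. Of 11 other settings, the calls of *Vps8* and *Zfp280c* held in 8 and 6.

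**Figure D1:**
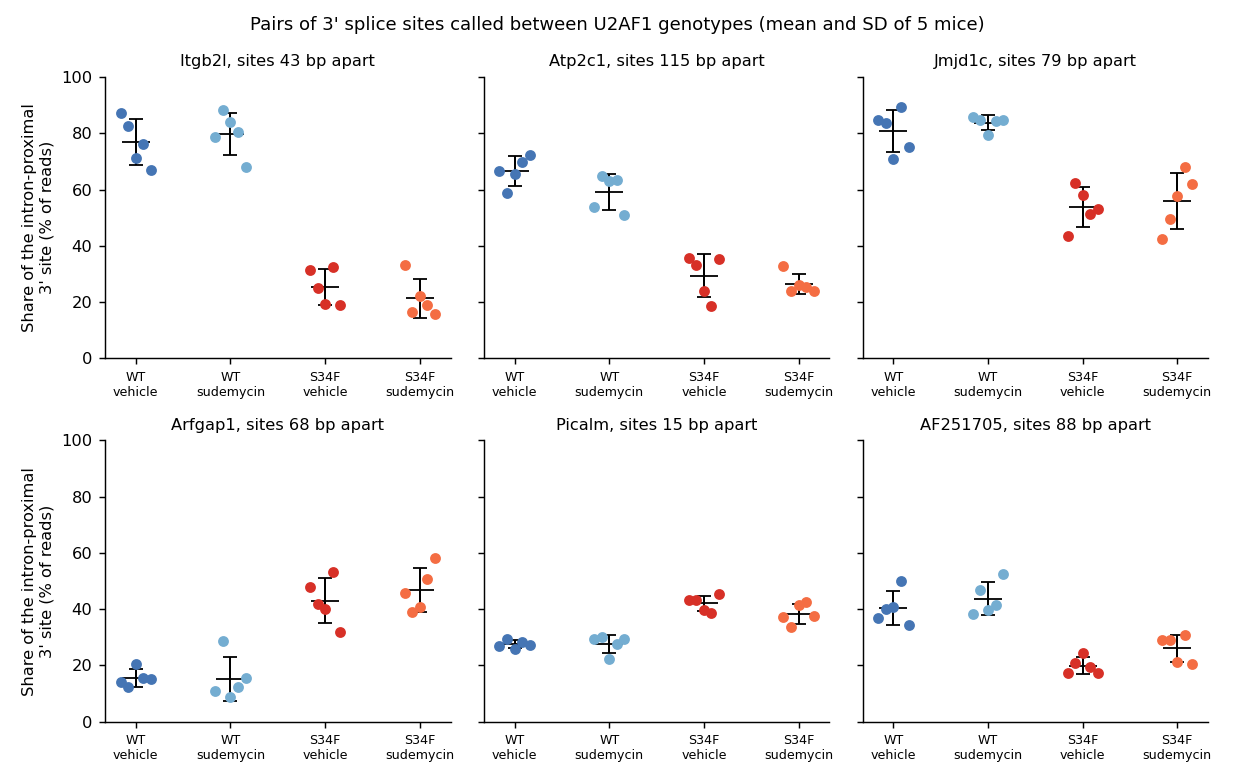
Proximal share (y axis, % of the reads of both junctions) in each of 20 mice (points) for 6 pairs called between genotypes, with the mean and SD of the 5 mice of each group. In Itgb2l, Atp2c1, Jmjd1c and AF251705 the U2AF1(S34F) mice lie below the U2AF1(WT) mice under vehicle, and in Arfgap1 and Picalm above them.

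Among the gene lists, that of 83 myeloid and neutrophil genes had 19 pairs tested and 4 called, all with a lower proximal share (*Itgb2l*, *AF251705*, *Lilrb3*, and a pair shared by the labels *Gp49a* and *Lilrb4*). The median difference was -0.35 points over its tested pairs, beside -0.26 over all 2138, of which 2.10% were called. The lists were chosen with earlier results of these data known. Their counts of called pairs, here and below, are therefore a description and no evidence about a kind of gene. In *AF251705*, the share was 36.7, 40.2, 40.9, 50 and 34.5% among U2AF1(WT), against 17.5, 21, 24.4, 19.4 and 17.4% in U2AF1(S34F) mice. It fell by 20.5 points (FDR 2.13e-08) with no overlap, while the gene rose (log2 fold change 0.34, FDR 0.00571). The call held in 8 of 11 other settings. *Lilrb3* and *Lilrb4* belong to a family of similar receptors, whose reads could be split between copies, so these values are uncertain.

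The list of 70 chromatin regulators and myeloid neoplasm genes had 3 of 17 pairs called (median 1.22 points), beside 2.10% of all tested pairs. In *Picalm*, a partner in leukaemia fusions, the sites are 15 bp or 5 codons apart, and the proximal share was 26.9, 29.6, 26.0, 28.5 and 27.3% among U2AF1(WT), against 43.3, 43.4, 39.7, 38.8 and 45.3% in U2AF1(S34F) mice, a rise of 14.4 points (FDR 3.50e-09). All mutant mice were above all controls, on 1356 to 2326 reads a mouse. The call held in 9 of 11 other settings, but limma and an estimated dispersion did not give it. *Ogt*, the X-linked O-GlcNAc transferase, fell by 13.7 points at sites 30 bp or 10 codons apart, and the gene itself was lower in U2AF1(S34F) mice (log2 fold change -0.45, FDR 0.00608). *Nup210*, a nuclear pore protein, had 0 proximal reads in all 5 U2AF1(WT) mice, and shares of 66.7, 60, 33.3, 16.7 and 0% in U2AF1(S34F) mice, on as few as 9 reads a mouse (FDR 0.00257). These groups touch at 0%, and without U2AF1(S34F) mouse 1 the call was lost (FDR 0.115). No pair was called among 37 of splicing factors and RNA-binding proteins, 7 of erythroid genes, 8 of B lymphoid genes and 20 of translation and ribosome genes. With 2.10% of all tested pairs called, lists this short can hold none without differing from the other pairs.

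The called pairs were then sorted by base -3, counting only pairs with AG at both sites. Of 475 tested pairs with T at the proximal site and another base at the distal site, 25 were called (5.26%), and the proximal share was lower in U2AF1(S34F) mice in all 25, by 3.31 to 49.6 points. With T at the distal site only, 5 of 247 were called (2.02%, beside 2.10% of all tested pairs). All 5 were higher (*Picalm*, *Zfp280c*, *Usp33*, *Tmem50a* and *H2-K1*, the last a class I histocompatibility gene with similar copies). With T at both sites 0 of 122 were called, and with T at neither 13 of 1255 (1.04%), 8 lower and 5 higher. The median difference over all tested pairs, called or not, was -0.95 points with T at the proximal site only, 0.15 with T at the distal site only, -0.11 with T at both and -0.20 with T at neither, beside -0.26 over all. *Itgb2l*, *Atp2c1* and *Arfgap1*, which were 3 of the 4 pairs with the largest differences among called pairs with groups apart and at least 20 reads in every mouse, have no T at base -3 of either site. With C at the proximal and A at the distal site, as in *Ogt*, 2 of 133 were called, both lower.

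**Figure D2:**
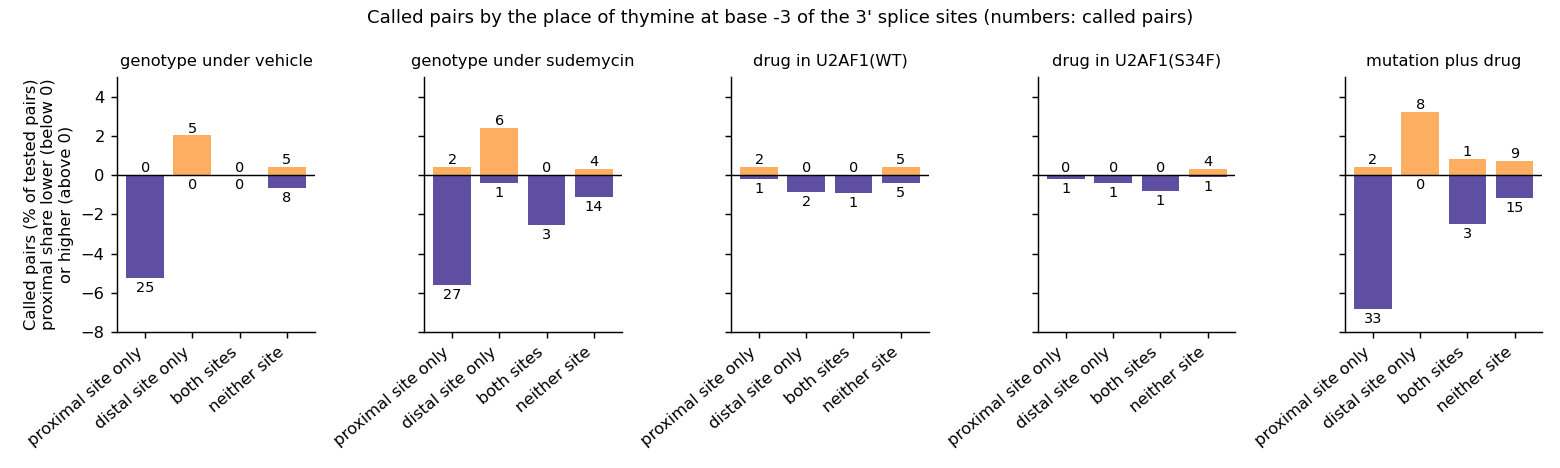
Called pairs as a percentage of the tested pairs (y axis), by whether thymine is at base -3 of the proximal site only, the distal site only, both or neither, in 5 comparisons. Bars below 0 are pairs with a lower proximal share in the second group and bars above 0 pairs with a higher one, with their number. Both genotype comparisons have their tallest bar below 0 in the first class (25 and 27 pairs), and no class has more than 5 called pairs in one direction in the drug comparisons.

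Sites further apart were called more often than close ones, with 4 of 651 pairs at 4 to 20 bp (0.614%), 16 of 766 at 21 to 60 bp (2.09%) and 25 of 721 at 61 to 200 bp (3.47%). Of the 45 calls, 35 were among the 717 pairs with a mean share between 10% and 90% (4.88%). In coding sequence 13 of 656 pairs that keep the frame and 16 of 846 that do not were called (1.98% and 1.89%), and in 5′ UTRs 9 of 245 (3.67%). Of the 46 host genes of called pairs 29 (63.0%) also passed the gene-level test, beside 762 of the 1690 host genes tested (45.1%). The shares lay close together under sudemycin, with 26 of 57 (45.6%) beside 762 of 1678 (45.4%), and for mutation plus drug, with 37 of 73 (50.7%) beside 901 of 1695 (53.2%).

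The same question was asked of the mice given sudemycin D6, which share no mouse with the vehicle comparison. Of 2148 pairs, 58 were called, with the proximal share lower in U2AF1(S34F) mice in 46 and higher in 12 (2.70%, against 2.62% of all neighbouring pairs, of which 1.53% were lower and 1.08% higher). The median size was 12.9 points. Of sites 3 bp apart 2 of 525 were called, and of those over 200 bp apart 270 of 8257 (3.27%).

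*Itgb2l* again had the largest difference. Its proximal share was 78.6, 88.4, 83.9, 80.4 and 68.2% in the U2AF1(WT) group, against 33.1, 16.4, 22.2, 19.1 and 15.7% in the U2AF1(S34F) group, and fell by 58.6 points (FDR 0.00365). *Atp2c1* was at 53.8, 64.8, 63.2, 63.3 and 50.9% and at 32.8, 24.0, 26.1, 25.3 and 24.0%, and fell by 32.8 points (FDR 1.96e-08). In both, the genotypes lay apart in every mouse.

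*Arfgap1* was at 10.9, 28.7, 8.80, 12.3 and 15.6% and at 45.7, 39.2, 40.9, 50.6 and 58.3%, and rose by 31.7 points (FDR 0.000287). *Jmjd1c* fell by 27.8 points (FDR 0.000732), *AF251705* by 17.7 points (FDR 3.95e-05) and *Ogt* by 11.3 points (FDR 5.66e-05), and *Picalm* rose by 10.7 points (FDR 9.05e-05). Of 11 other settings, the call held in 10 for *Arfgap1* and in 9 each for *Jmjd1c*, *AF251705*, *Ogt* and *Picalm*. *Ccdc76*, a tRNA methyltransferase, fell by 28.7 points at sites 115 bp apart (FDR 0.0434), with a difference of -24.8 points under vehicle that did not pass (FDR 0.121). Its call was lost without U2AF1(S34F) mouse 6 or 12. *Vps8* differed by -22.8 points (FDR 0.0742), and its call held without only 3 of the 10 mice.

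Of the 45 pairs called under vehicle all were tested under sudemycin, 43 had the same direction there and 23 were called, 51.1% of the vehicle list and 39.7% of the sudemycin list. All 23 kept their direction. Of all 1985 pairs with values in both comparisons 61.3% had the same direction. Besides the pairs above, the 23 include *Top2a*, the DNA topoisomerase of dividing cells, with differences of -20.1 points under vehicle and -21.9 under sudemycin at sites 88 bp apart in the 3′ UTR. *Apaf1*, of the apoptosome, differed by -14.8 and -15.4 points in the 5′ UTR. *Lsp1*, an actin-binding protein of leukocytes, differed by -6.64 and -7.63 points. *Mier1*, chosen after its values were seen, is one of the 2 exceptions under vehicle: it fell by 49.6 points under vehicle (FDR 0.0294) and differed by 2.26 points under sudemycin (FDR 0.979), with means of 69.0 ± 31.9% and 19.3 ± 3.37% (SD, 5 mice each) under vehicle but 27.4 ± 38.2% and 29.7 ± 11.3% under sudemycin. It is also one of 3 pairs called under vehicle in which a junction had 0 reads in a mouse where the share in the others predicted at least 10. The other, *D14Abb1e*, fell by 8.76 points and then differed by 0.66.

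**Figure D3:**
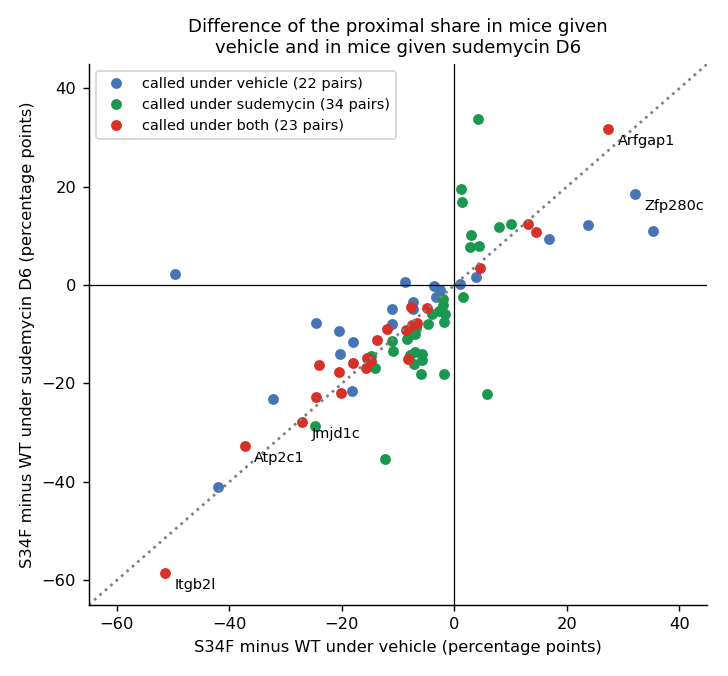
Difference of the proximal share between U2AF1(S34F) and U2AF1(WT) mice, in percentage points, under vehicle (x axis) and under sudemycin D6 (y axis), for the pairs called in at least one of these comparisons and tested in both. The dotted line marks equal differences. The 23 pairs called in both (red) all lie where both differences have the same sign.

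By base -3, 29 of 482 pairs with T at the proximal site only were called (6.02%), 27 of them lower and 2 higher, with a median difference of -1.09 points over all 482. With T at the distal site only 7 of 248 were called (2.82%, beside 2.70% of all tested pairs), 6 higher and 1 lower (median 0.56 points over all 248). Of pairs with T at both sites 3 of 117 were called (2.56%), and of pairs with T at neither 18 of 1264 (1.42%). With C at the proximal and A at the distal site 5 of 138 were called (3.62%), all lower. The median over all tested pairs was -0.18 points.

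The levels behind these differences are seen in the mean proximal share per mouse over pairs with at least 20 reads in every mouse and a mean share between 5% and 95%. Over the 175 such pairs with T at the proximal site only, it was 60.1 to 61.2% (vehicle) and 59.9 to 62.3% (sudemycin) for U2AF1(WT), against 53.8 to 56.5% and 55.4 to 57.3% for U2AF1(S34F). Over 75 pairs with T at the distal site only it was 50.4 to 52.8% and 51.1 to 54.4% for U2AF1(WT), against 54.4 to 56.6% and 53.6 to 55.2% for U2AF1(S34F), and here the sudemycin groups overlapped. Over 47 pairs with T at both sites the 4 groups overlapped, between 55.6 and 59.3%. Over 415 pairs with T at neither site it was 57.6 to 58.9% and 57.9 to 58.8% for U2AF1(WT), against 56.7 to 57.6% and 57.3 to 57.8% for U2AF1(S34F), so that the vehicle groups overlapped and the sudemycin groups did not. Over 36 pairs with C at the proximal and A at the distal site it was 60.6 to 64.7% in U2AF1(WT) and 57.4 to 60.4% in U2AF1(S34F) mice, both treatments together. Over all 720 such pairs, which include the classes above, U2AF1(WT) mice were at 57.6 to 58.6% (vehicle) and 57.9 to 58.9% (sudemycin). U2AF1(S34F) mice were at 55.8 to 57.0% and 56.6 to 56.9%, so the genotypes did not overlap under either treatment. Absence of overlap alone therefore does not set a class apart from all pairs. These means are a description of pairs that share mice and libraries.

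**Figure D4:**
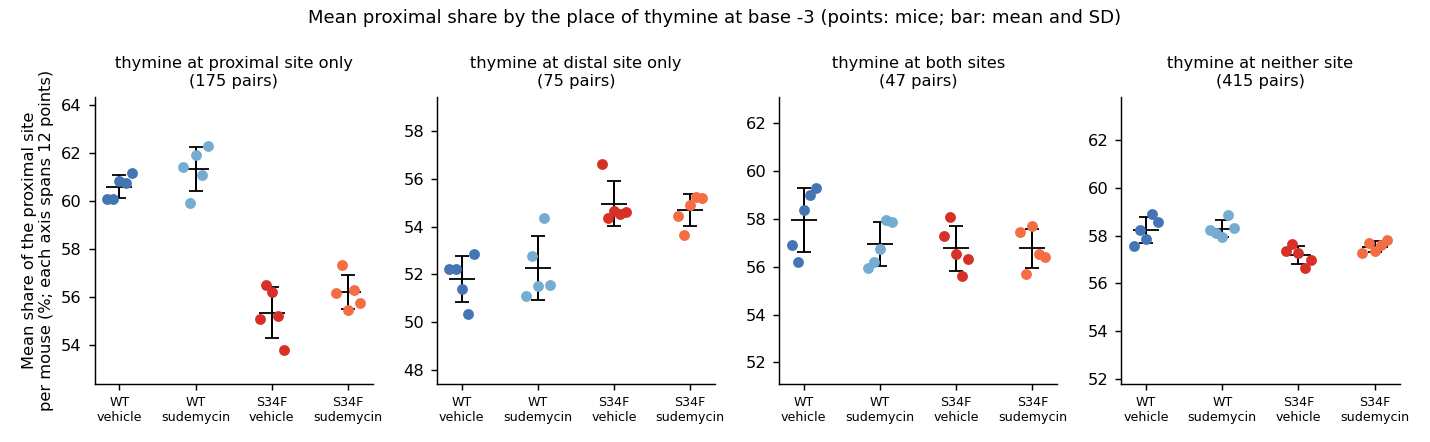
Mean proximal share per mouse (y axis, %, each panel spanning 12 points) over pairs sorted by where thymine is at base -3, with the mean and SD of the 5 mice of each group. With thymine at the proximal site only, the U2AF1(S34F) mice lie at 53.8 to 57.3% and the U2AF1(WT) mice at 59.9 to 62.3%. The 4 groups overlap with thymine at both sites.

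The next question was which site choices differ with sudemycin D6. In U2AF1(WT) mice 16 of 2088 pairs were called, 7 with a higher and 9 with a lower proximal share under the drug (0.766%, against 1.4% of all neighbouring pairs, 0.85% lower and 0.553% higher). In U2AF1(S34F) mice 8 of 2159 were called, 4 higher and 4 lower (0.371%, against 0.876%, 0.554% lower and 0.322% higher). Cell type markers moved with the drug too: 2 of 6 stem and progenitor cell genes were lower under it in U2AF1(WT) and 5 of 6 in U2AF1(S34F) mice, and 4 of 6 eosinophil, basophil and mast cell genes were lower in U2AF1(WT) and 1 in U2AF1(S34F) mice. Summed stem and progenitor markers spanned 104 to 153 CPM under vehicle and 65.2 to 130 CPM under sudemycin in U2AF1(WT) mice, and 133 to 173 CPM and 92.3 to 124 CPM in U2AF1(S34F) mice. Summed monocyte and macrophage markers, 6 of 7 measured, spanned 1276 to 1789 CPM under vehicle and 1294 to 1535 CPM under sudemycin in U2AF1(WT) mice. In U2AF1(S34F) mice they spanned 1241 to 1504 CPM and 1566 to 1966 CPM, and 1 of 6 genes was higher under the drug. The part of all these markers in the drug differences was not tested. At sites 3 bp apart 0 of 523 and 0 of 527 were called in edgeR. By base -3, T at the proximal site only had 3 called of 474 pairs in U2AF1(WT) (0.633%) and 1 of 485 in U2AF1(S34F) mice (0.206%). With T at neither site these were 10 of 1236 (0.809%) and 5 of 1259 (0.397%).

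*Ino80d* fell in both genotypes. Its proximal share was 61.6, 63.6, 67.8, 62.6 and 69.6% on vehicle and 37.9, 44.2, 39.4, 46.6 and 40.5% on sudemycin among U2AF1(WT) mice, a fall by 23.3 points (FDR 0.000131). In U2AF1(S34F) mice it was 64.9, 58.7, 67.2, 61.4 and 62.6% under vehicle and 45.5, 40.3, 38.2, 53.3 and 45.4% under sudemycin, a fall by 18.4 points (FDR 0.00646). The treated and untreated mice did not overlap in either genotype, and the gene's level did not pass the test in either (log2 fold changes 0.10 and 0.13).

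*Rab6a* was at 31.0, 24.9, 30.9, 35.0 and 25.8% under vehicle and 15.7, 18.1, 19.4, 12.6 and 9.30% under sudemycin in U2AF1(WT) mice, and fell by 14.5 points (FDR 6.87e-06). In U2AF1(S34F) mice it was at 32.4, 34.1, 29.3, 36.1 and 37.9% and then at 19.6, 22.3, 23.9, 26.6 and 22.6%, and fell by 10.9 points (FDR 0.000602). All treated mice lay below all untreated mice of their genotype. The drug calls of *Ino80d* and *Rab6a* held without each mouse in turn in both genotypes, and in 8 of 10 other settings, but limma and an estimated dispersion did not call them.

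*Chd4* had 2 pairs at different introns. At sites 21 bp or 7 codons apart, the proximal share was 22.1, 24.7, 24.0, 24.4 and 23.2% under vehicle and 30.1, 35.2, 39.5, 39.8 and 32.1% under sudemycin in U2AF1(WT) mice (a rise of 11.7 points, FDR 0.00211), with a difference of 2.49 points in U2AF1(S34F) mice (FDR 0.713). The difference between these 2 drug effects was -9.18 points and did not pass (FDR 1). At sites 39 bp or 13 codons apart, it rose by 8.90 points in U2AF1(WT) (FDR 0.0542) and by 8.40 points in U2AF1(S34F) mice (FDR 0.0378), where the call held without 6 of the 10 mice. These pairs were the 2 called of 17 in the chromatin list in U2AF1(WT) mice (median 3.30 points, beside 0.05 over all pairs, of which 0.766% were called). The 3 called of 17 in U2AF1(S34F) mice were *Chd4*, *Cux1* and *Ogt*, all higher (median 0.61 points, beside 0.00445 over all pairs, of which 0.371% were called). *Cux1*, a homeobox transcription factor, rose by 12.3 points (FDR 0.0819), and its call held without only 2 of the 10 mice.

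*Ogt*, called in both genotype comparisons, was also called with the drug. In U2AF1(S34F) mice the share was 58.0, 60.7, 61.1, 58.5 and 56.1% under vehicle and 67.0, 65.3, 66.4, 64.3 and 66.2% under sudemycin, a rise of 6.99 points (FDR 0.0270). The call was lost without vehicle mouse 11 or sudemycin mouse 2. In U2AF1(WT) mice it was 71.9, 74, 70.2, 70.8 and 75.9% under vehicle and 74.7, 77.8, 76.5, 81.5 and 75% under sudemycin, a difference of 4.55 points that did not pass (FDR 0.452). The 2 treatment groups of U2AF1(WT) mice overlap, and all 10 U2AF1(S34F) mice were below them.

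**Figure D5:**
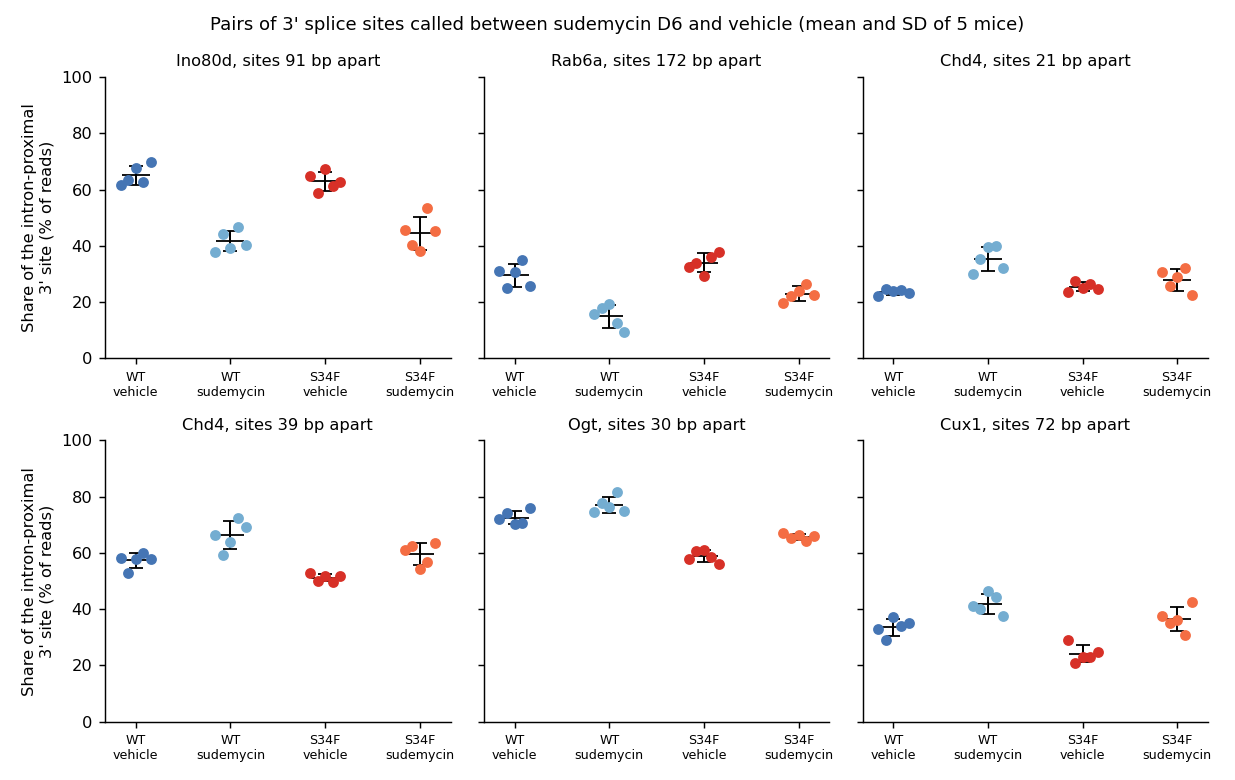
Proximal share (y axis, % of the reads of both junctions) in each of 20 mice (points) for 6 pairs called between sudemycin D6 and vehicle in at least one genotype, with the mean and SD of the 5 mice of each group. Ino80d and Rab6a are lower under sudemycin in both genotypes, and Ogt is lower in the U2AF1(S34F) mice under either treatment.

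The calls of the other drug pairs named by the rule did not hold without each mouse in turn. *Glyr1*, a chromatin protein, fell by 12.5 points in U2AF1(WT) mice (FDR 0.00456), and its call was lost without sudemycin mouse 8 (FDR 0.199). *Fgd2*, an exchange factor for CDC42, rose by 19.2 points (FDR 0.0869) and its call held without only 4 of the 10 mice. *Rasgrp4*, a Ras exchange factor of myeloid cells, fell by 8.18 points (FDR 0.0390), with the call lost without any of 4 mice. *Rpl11*, a ribosomal protein and the single called pair of 19 in the translation list (beside 0.766% of all tested pairs), fell by 1.61 points (FDR 0.0938) at sites 4 bp apart. In 2 of its vehicle mice the distal junction had 0 of 3465 and 0 of 4811 reads, and the call held without only 4 of the 10 mice (FDR up to 0.528). *Carf*, a transcription factor, fell by 25.8 points in U2AF1(S34F) mice (FDR 0.0378) on 22 to 77 reads a mouse, and its call held without 6 of the 10 mice.

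*Rab6a*, *Glyr1* and *Fgd2* were called between genotypes too, under sudemycin, with differences of 8.0, 10.1 and -18.1 points (FDR 0.0261, 0.0294 and 0.0810).

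Of the 16 pairs called in U2AF1(WT) mice 13 had the same direction in U2AF1(S34F) mice, which are other animals, and 3 were called in both (*Ino80d*, *Rab6a* and the 39 bp pair of *Chd4*), 18.8% of one list and 37.5% of the other. All 8 pairs called in U2AF1(S34F) mice had the same direction in U2AF1(WT) mice. Of all 1947 pairs with values in both, 55.7% had the same direction. Whether the drug's difference itself differed between genotypes was tested as an interaction over all 20 mice. No pair of 2279 was called in edgeR (0.0% of all neighbouring pairs), with 101 at an unadjusted p under 0.05, and DESeq2 called 0 and limma 0.

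Vehicle-treated U2AF1(WT) mice were last compared with sudemycin-treated U2AF1(S34F) mice, the comparison of mutation plus drug with neither. It shares mice with each comparison above. Of 2164 pairs, 72 were called, 52 lower and 20 higher (3.33%, against 4.38% of all neighbouring pairs, 2.63% lower and 1.75% higher). In the same comparison 6 of 7 B cell genes (median log2 fold change -1.56), 5 of 6 megakaryocyte genes (-1.01), 4 of 6 T and NK cell genes and 4 of 6 stem and progenitor cell genes were lower, and 5 of 11 neutrophil genes were higher. Their part in the splicing differences was not tested. *Itgb2l* fell by 55.5 points, *Atp2c1* by 40.2 points and *Jmjd1c* by 24.8 points, and *Arfgap1* rose by 31.4 points. *Usp33* was at 33.9, 46.7, 24.6, 59.0 and 38.5% without and at 63.0, 66.2, 66.0, 65.5 and 63.3% with mutation and drug, a rise of 24.2 points (FDR 0.000533), and it had also risen with the mutation under vehicle (23.7 points, FDR 0.000980). The first group spread widely and the second hardly, and they did not overlap. *Mtap4*, a microtubule-associated protein, rose by 22.4 points at sites 106 bp apart (FDR 0.00260). The calls of *Jmjd1c*, *Usp33* and *Mtap4* held in 8 of 10 other settings.

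In the gene lists, *Trp53*, the tumour suppressor p53, rose in this comparison by 11.6 points from a mean of 6.74 ± 3.82% to 18.3 ± 2.95% (SD, n = 5 each, FDR 0.0357) at sites 96 bp apart, and its call was lost without U2AF1(WT) mouse 4. Differences under the mutation alone were 8.0 points under vehicle and 7.89 points under sudemycin, and neither passed (FDR 0.319 and 0.287). *Mbnl1*, a splicing regulator, fell by 5.92 points (FDR 0.00243) at sites 105 bp or 35 codons apart. The calls of *Trp53* and *Mbnl1* held in 8 of 10 other settings. *Luc7l3*, of the U1 snRNP, had 0 proximal reads in all 5 mice of the first group and shares of 3.26 to 25.5% in the second (FDR 0.0838), and its call held without only 2 of the 10 mice. *Mbnl1* and *Luc7l3* were the 2 called of 36 pairs of splicing factors. The myeloid list had 4 of 19 called, all lower, and the chromatin list 3 of 17. Of all tested pairs 3.33% were called. For each named pair with groups that did not overlap, the two-sided exact permutation test of the share gave p = 0.00794, the smallest that 5 against 5 mice allow. Any complete separation gives this value, and the pairs with the largest differences were chosen for it, so it adds no support.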

How the data were processed

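Bulk bone marrow RNA of 20 mice was depleted of ribosomal RNA, made into stranded libraries and sequenced. The authors aligned the reads with TopHat2 2.0.8 to mm9, per the submitters' processing notes, and deposited unnormalized counts of reads per gene and on 554616 junctions. The program that counted is not given in the sources used here. Of the junctions, 181355 join annotated sites with each other and were used. Even numbers made up 54.0% of the pairs' junction counts between 1 and 20, so reads may not be independent molecules.

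Of 2882 pairs at 4 to 200 bp, 219 were left out for an intron between their sites, and 164 pairs of sites that were not neighbours were never formed. A pair was tested where the mice compared averaged 10 or more reads and both junctions had reads. Both counts of a mouse entered edgeR 4.0.16 (R 4.3.3) together, with 1 coefficient for each mouse, a group effect on their ratio, dispersion 0 and a robust quasi-likelihood fit, over all neighbouring pairs, with Benjamini-Hochberg adjustment. This form of the test was taken from earlier work on these data in which most other forms called nothing. Each comparison was fitted on its own 10 mice, and the interaction on all 20. Difference means second minus first group, as the mean of shares. Gene counts were tested in edgeR with TMM scaling (FDR<10%). The alternatives were DESeq2 1.42.0, limma 3.58.1 on the log2 ratio with 0.5 added to each count, an estimated dispersion, edgeR's older quasi-likelihood form, other limits on reads and differences, 3′ pairs alone, one model of all mice, a block for the replicate number, and each mouse left out in turn. Scripts were tested on simulated data.

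Members and lists were chosen with earlier results of these data known. The pairs named were, in each comparison, the 6 with the largest difference among called pairs whose groups did not overlap and with at least 20 reads in every mouse, 1 per gene, and up to 2 called pairs of each gene list. *Tmem50a*, *H2-K1*, *Lilrb3*, *Gp49a*/*Lilrb4*, *Top2a*, *Apaf1*, *Lsp1*, *Mier1* and *D14Abb1e* were chosen after their values were seen. Sequences came from the mm9 genome and annotations from GENCODE M1. Python 3.11.15 and scipy 1.17.1 were used for pairs and exact tests. One pair called in a single alternative is not reported here.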

Additional observations from a re-analysis of the deposited data

Results flagged for a closer look

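Of 102 groups of 5 mice tested over the named pairs, 3 held a mouse that stood apart from the others by Dixon's test, which chance does in about 1 of 20 groups. In *Atp2c1*, sudemycin-treated U2AF1(S34F) mouse 2 had a proximal share of 32.8%, with the others between 24.0 and 26.1%. In *Jmjd1c*, sudemycin-treated U2AF1(WT) mouse 9 was at 79.4%, with the others between 84.5 and 85.8%. In *Nup210*, sudemycin-treated U2AF1(WT) mouse 10 was at 16.3%, with the others between 0 and 1.92%. These mice did not set the direction of any genotype difference of *Atp2c1* or *Jmjd1c*, whose calls held without each mouse.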

How the results depend on the processing

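Direction held for every named pair under every alternative run, but the number of called pairs depended on the test. In the order vehicle genotype, sudemycin genotype, drug in U2AF1(WT), drug in U2AF1(S34F) and mutation plus drug, an estimated dispersion called 4, 3, 0, 0 and 13 pairs, and limma on the log ratio 9, 12, 0, 1 and 20. The dispersion of each pair, added after seeing the data, called 5 and 19 in the drug comparisons, and DESeq2 7 and 13. In U2AF1(WT), the drug count was 8 with the older quasi-likelihood form and 10 with a difference over 5 points, and in U2AF1(S34F) it was 3 in one model of all mice. Without each mouse in turn, the counts were 30 to 43, 32 to 57, 11 to 18, 2 to 8 and 55 to 78. The cause of these changes was not tested.

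Deviations of same-numbered mice from their group means had correlations between -0.0166 and 0.0140. Counting noise in single pairs lowers such correlations, so they do not settle whether the numbers pair mice. With a replicate block the genotype counts were 3 under vehicle and 14 under sudemycin. Only numbers found in both genotypes inform that fit, which are 1, 3 and 5 under vehicle and 6, 9, 10 and 12 under sudemycin. Its lower counts thus also come from fewer mice.

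In 280 pairs a mouse had 0 reads on 1 junction where the other mice's share predicted at least 10. Without such pairs, an alternative added after seeing the data, the counts were 42, 52, 12, 8 and 67. The interaction had no call except 5 without a read minimum. Of these, *Wdfy4*, *Sclt1*, *Mob1a* and *Arhgef18*, chosen after their values were seen, had 0 reads on 1 junction in every sudemycin-treated U2AF1(WT) mouse.

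Among named pairs, 30 of 42 comparisons lost their call in limma, 35 with an estimated dispersion, 6 in DESeq2 and 10 of 18 with the block, which used fewer mice. Named pairs with few reads, down to 9 a mouse, have wide counting error.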
